A study of Mus musculus with 6 samples.

Results

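The thrombospondin and laminin genes described here are 8 of the 16440 genes in the deposited table, namely the thrombospondins Thbs1, Thbs2, Thbs3 and Thbs4 and the laminin chains Lamb1, Lamb2, Lamc1 and Lama5. They were chosen by gene name, and the set was chosen on the measured rise of Thbs4 and Lamb1 from near absence in APL cells, so the differences of the members between the 2 groups are given as a description without a test. The study sorted normal myeloid progenitors (MPs) as Lin-Sca-1-c-Kit+ cells of FVB N/J mouse bone marrow (BM) and compared them with c-Kit+ APL progenitors of the same strain, with 3 libraries in each group. The APL cells arose in hMRP8-PML/RARα transgenic mice, in which a promoter of the myeloid lineage drives the fusion gene, were marked with GFP by a retroviral vector and were expanded by transplantation into syngeneic recipients. The labels give no transgene, vector or drug for the MPs and no age for either group, and they call the libraries biological replicates without saying whether each came from its own mouse or its own leukemia. A p-value therefore measures the spread between these libraries only.

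Thrombospondins are large secreted glycoproteins that bind cell surfaces, growth factors and other matrix proteins. Thbs1 and Thbs2 form trimers and carry thrombospondin type 1 repeats, whereas Thbs3, Thbs4 and their relative Comp form pentamers and lack those repeats. Laminins are heterotrimers of an α, a β and a γ chain that organise basement membranes, and a laminin is secreted efficiently only when an α chain has joined the β and γ chains. Thbs1 is best known in blood as a protein of platelet granules, and Thbs4 as a matrix protein of tendon, muscle and injured tissue.

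Thbs4 and Lamb1 were both far higher in APL progenitors, and Thbs2 was listed at 0 in every APL library. The sequences before their starts are printed to show what stands in front of these genes. RefSeq gave a promoter for 6 of the 8 members on GRCm38.p6. Each run below holds the 250 bases before the annotated start of transcription, with capitals at matches of 5 short motifs, each searched on both strands and spelled out where its matches are given.
Thbs4, chr13:92794819-92795068, minus strand: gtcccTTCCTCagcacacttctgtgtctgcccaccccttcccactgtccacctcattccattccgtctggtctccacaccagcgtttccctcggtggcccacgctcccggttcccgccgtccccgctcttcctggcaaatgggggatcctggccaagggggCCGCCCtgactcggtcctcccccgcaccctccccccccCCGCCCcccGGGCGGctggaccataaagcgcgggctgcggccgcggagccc
Lamb1, chr12:31265043-31265292, plus strand: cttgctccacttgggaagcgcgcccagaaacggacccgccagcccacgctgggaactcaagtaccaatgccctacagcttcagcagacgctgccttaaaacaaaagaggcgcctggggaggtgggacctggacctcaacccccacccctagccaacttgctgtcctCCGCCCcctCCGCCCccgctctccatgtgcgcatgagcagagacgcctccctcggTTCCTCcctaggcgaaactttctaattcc
Thbs2, chr17:14694263-14694512, minus strand: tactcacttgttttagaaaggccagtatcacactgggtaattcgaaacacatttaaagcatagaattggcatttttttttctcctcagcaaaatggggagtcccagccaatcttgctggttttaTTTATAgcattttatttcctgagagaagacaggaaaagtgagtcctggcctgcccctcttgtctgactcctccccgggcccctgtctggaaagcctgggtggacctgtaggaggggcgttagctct

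The windows of Thbs4 and Lamb1 were richer in CpG than that of Thbs2. Thbs4 held 19 CpG, Lamb1 14 and Thbs2 3, where the median of 32536 promoter windows of the same length was 6. The share of windows with fewer CpG was 80.1% for Thbs4, 70.4% for Lamb1 and 28.8% for Thbs2. The GC box, searched as GGGCGG, was matched 3 times before Thbs4, at 89, 51 and 42 bases before the start, and 2 times before Lamb1, at 84 and 75 bases. Thbs2 had no GC box match and 1 match of the TATA box, searched as TATAAA, at 126 bases before the start. A GC box stood in 33.0% of all windows and a TATA box in 12.3%. Thbs4 and Lamb1 each held 1 match of GAGGAA, the core of sites of the myeloid factor PU.1, at 245 and 29 bases, against 23.4% of all windows with at least 1. Thbs3, Lamb2 and Lama5 held 1 match of it each as well, at 193, 208 and 235 bases. The half-site of retinoic acid receptors, AGGTCA, was found in 14.0% of all windows and in none of these 6. The E-box that MYC binds, CACGTG, was found in 6.04% of all windows and likewise in none of the 6. A match is a run of letters and does not show that a factor binds there. Lama5, which was low in both groups, held 19 CpG and 4 GC box matches. The part of these features in the levels of the genes was not tested.

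Before scaling, the libraries held between 20608715 and 28382785 fragments. Values are given as scaled fragments, which are estimated fragments that the authors had multiplied by a factor of each library, or as FPKM, which is also divided by transcript length and is used wherever genes are compared with each other. Kit and the granule genes Mpo and Elane were present in all 6 libraries, with Kit at 10668 ± 272 scaled fragments in MPs and 5929 ± 132 in APL progenitors (SD, n = 3 each). Ly6a, which encodes the Sca-1 that the MP sort excluded, was low but present in all 6 libraries, at 27.2 ± 7.09 scaled fragments in MPs and 43.4 ± 4.99 in APL progenitors. In such bulk samples a lower share of cells that express a gene and less RNA of it per cell cannot be told apart.

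Thbs4 was the most abundant of the 8 genes in APL progenitors. It lies on chromosome 13 of GRCm38 from 92751586 to 92794818. Its scaled fragments numbered 28.1, 223 and 39.7 in MPs (libraries 1 to 3 in order). They numbered 106308, 119100 and 113470 in APL progenitors. The APL values lay close together and far above every MP value, and MP library 2 stood above the other MP libraries. By FPKM, Thbs4 ranked 84, 85 and 87 among all genes in the APL libraries, against 11882, 9664 and 11705 for the MPs. It took up 0.454% of all scaled fragments of an APL library on average. The log2 difference on the scale of log2(scaled fragments + 1) was 10.78 with a standard error of 0.62, and 1 gene among those tested, Iqca, had a larger one.

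Lamb1, the β1 chain of many embryonic and widely expressed laminins, lies on chromosome 12 from 31265294 to 31329639. It had 0, 2.86 and 0.902 scaled fragments in the MP libraries, which are 0, 3 and 1 fragments before scaling. In the APL libraries it had 1164, 1156 and 1207 scaled fragments, so the groups were far apart. The ratio of APL to MP fragments was 947 with a 95% interval of 369 to 3476 for counting error, and the width of this interval comes from the 4 MP fragments. The fitted log2 difference was 9.24 with a standard error of 0.42. With so few MP fragments this value depends on the pseudocount, and it was 7.01 with 8 in place of 1. Lamb1 passed the filter on low values through the APL group.

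**Figure D1:**
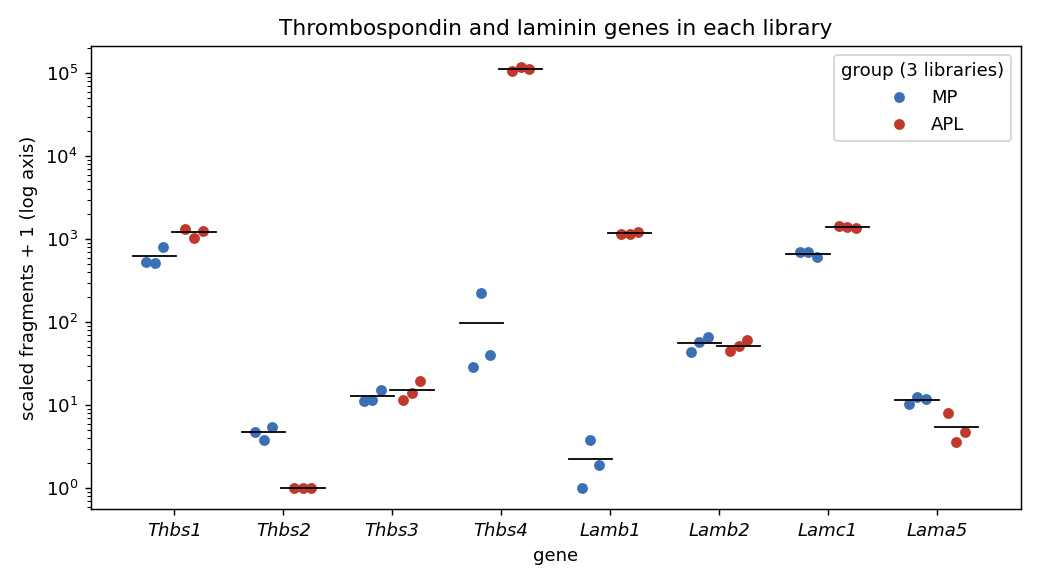
Scaled fragments + 1 (log axis) of the 8 genes in each of the 6 libraries, with 3 points per group and a bar at the group mean. Thbs4 and Lamb1 lie far apart between the groups, Thbs1 and Lamc1 differ by a ratio of 1.94 and 2.09, and Thbs3 and Lamb2 overlap.

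MP library 2 held the highest value of both Thbs4 and Lamb1 among the MP libraries. Set against the APL mean, Thbs4 stood at 0.0249%, 0.197% and 0.0351% in MP libraries 1 to 3 and Lamb1 at 0%, 0.243% and 0.0767%. In 41 other genes with an APL mean of at least 1000 scaled fragments and an MP mean under 1% of it, chosen after the values were seen, the median share was 0.280%, 0.481% and 0.220% in the same order. MP library 2 was the highest of the MP libraries for 29 of these genes, MP library 1 for 6 and MP library 3 for 6. The same was not counted over all genes tested, so nothing is read from these counts. For Thbs4, MP library 2 stood further above the other MP libraries, relative to their values, than it did in this median. Without MP library 2 the log2 difference of Thbs4 was 11.68 and that of Lamb1 9.74. The part of this library in the level of Thbs4 in MPs was not tested.

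**Figure D2:**
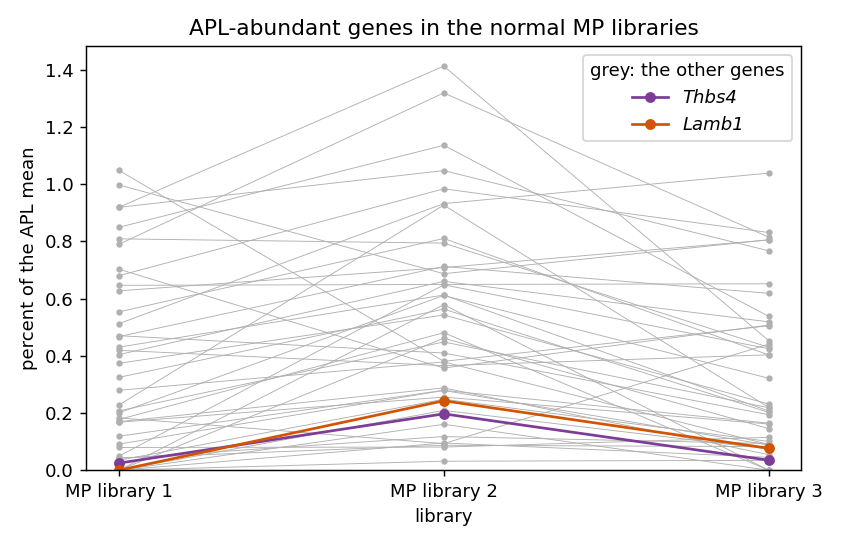
Each line joins the values of 1 gene in the 3 normal MP libraries, as a percent of its mean in APL progenitors, for Thbs4, Lamb1 and 41 other genes that were abundant in APL and low in MPs. MP library 2 was the highest for Thbs4, for Lamb1 and for 29 of the other genes.

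Thbs1 and Lamc1 were already present in normal MPs and were about 2-fold higher in APL progenitors. Thbs1, on chromosome 2 from 118111922 to 118127133, had 533, 523 and 811 scaled fragments in the MP libraries and 1323, 1032 and 1270 in the APL libraries. MP library 3 stood above the other MP libraries but below every APL library. The log2 difference was 0.98 with a standard error of 0.17. Lamc1, the γ1 chain shared by most laminins, lies on chromosome 1 from 153218922 to 153332786. It had 700, 693 and 613 scaled fragments in MPs and 1436, 1408 and 1350 in APL progenitors. The 3 libraries of each group were close together and the groups did not overlap, with a log2 difference of 1.07 and a standard error of 0.08.

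Thbs3 and Lamb2 did not separate the groups. Thbs3, a pentameric thrombospondin on chromosome 3 from 89215187 to 89226837, had 10.3, 10.5 and 14.4 scaled fragments in MPs and 10.6, 13.0 and 18.5 in APL progenitors. Lamb2, the β2 chain best known from the kidney filter and the neuromuscular junction, lies on chromosome 9 from 108479862 to 108490530. It had 43.1, 57.1 and 65.8 scaled fragments in MPs and 43.6, 51.1 and 59.2 in APL progenitors. For both genes the ranges of the groups overlapped. The ratio of fragments, APL over MP, was 1.18 for Thbs3 with a 95% interval of 0.734 to 1.89 for counting error, and 0.923 for Lamb2 with 0.736 to 1.16.

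Thbs2 and Lama5 were rare in both groups and lower in APL progenitors. Thbs2, on chromosome 17 from 14665500 to 14694262, had 3.75, 2.86 and 4.51 scaled fragments in MPs, which are 4, 3 and 5 fragments, and 0 in every APL library. A count of 0 allows up to 3 fragments in a library, so no fold is given. Thbs2 passed the filter only through the MP group. Lama5, the α5 chain of laminins of adult basement membranes and of the marrow, lies on chromosome 2 from 180176373 to 180225859. It had 9.37, 11.4 and 10.8 scaled fragments in MPs and 7.07, 2.60 and 3.70 in APL progenitors. Its groups did not overlap, but the APL values rest on 6, 3 and 3 fragments, and the ratio APL over MP was 0.405 with a 95% interval of 0.191 to 0.802 for counting error.

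All 8 members passed the filter on low values. By limma with Benjamini-Hochberg adjustment and a fold over 1.5, 4 were called higher (Thbs1, Thbs4, Lamb1 and Lamc1) and 2 lower (Thbs2 and Lama5). The call of Lama5 was lost with quantile normalization and without MP library 2 or 3 or APL library 2 or 3. That of Thbs2 was lost with a pseudocount of 8, and the gene was not tested once any 1 of the MP libraries was left out. Thbs3 was called higher with quantile normalization. Of all 14595 genes tested, 21.7% were called higher, 24.4% lower and 46.1% in either direction, and nothing is read from the members' count because the contrast chose them. The median log2 difference was 0.60 over the members and −0.10 over all genes tested.

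The order of the levels changed between the groups. In MPs, Thbs1 led with 3.57 ± 0.925 FPKM, followed by Lamc1 with 3.06 ± 0.246, Thbs4 with 0.943 ± 1.07 and Lamb2 with 0.373 ± 0.0708 (SD, n = 3 each). Thbs1 and Lamc1 overlapped in their ranges, as did Thbs4 and Lamb2. Below them stood Thbs3 at 0.125, Lama5 at 0.0349, Thbs2 at 0.0206 and Lamb1 at 0.00722 FPKM. In APL progenitors Thbs4 led with 1114 ± 58.7 FPKM, followed at a wide distance by Thbs1 with 7.03 ± 0.924, Lamb1 with 6.86 ± 0.171 and Lamc1 with 6.43 ± 0.184. The range of Thbs1 overlapped those of Lamb1 and Lamc1, while all 3 Lamb1 values lay above all 3 Lamc1 values. By its mean, Lamb1 thus went from the last place in MPs to a level close to that of Lamc1 in APL progenitors. In MP library 2, however, Lamb1 stood above Thbs2, at 0.0166 against 0.0159 FPKM, so their MP ranges overlapped.

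The laminin chains showed β and γ transcripts without a comparable α transcript. The ratio of Lamb1 to Lamc1 in FPKM was 0, 0.00520 and 0.00184 in the MP libraries, against 1.03, 1.05 and 1.13 in the APL libraries. Lamb1 made up between 89.6% and 91.6% of the β chain FPKM in APL progenitors and at most 3.38% in MPs. The γ chains summed to 3.06 ± 0.248 FPKM in MPs and 6.44 ± 0.191 in APL progenitors. The α chains, of which all 5 were listed, summed to 0.0545 ± 0.0136 FPKM in MPs and 0.0265 ± 0.00528 in APL progenitors. In the APL libraries the α sum was between 0.00327 and 0.00504 of the Lamc1 value. Lama1 was at 0 in every APL library, Lama2 at 0, 2.60 and 6.17 scaled fragments, and Lama4 at no more than 0.867.

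**Figure D3:**
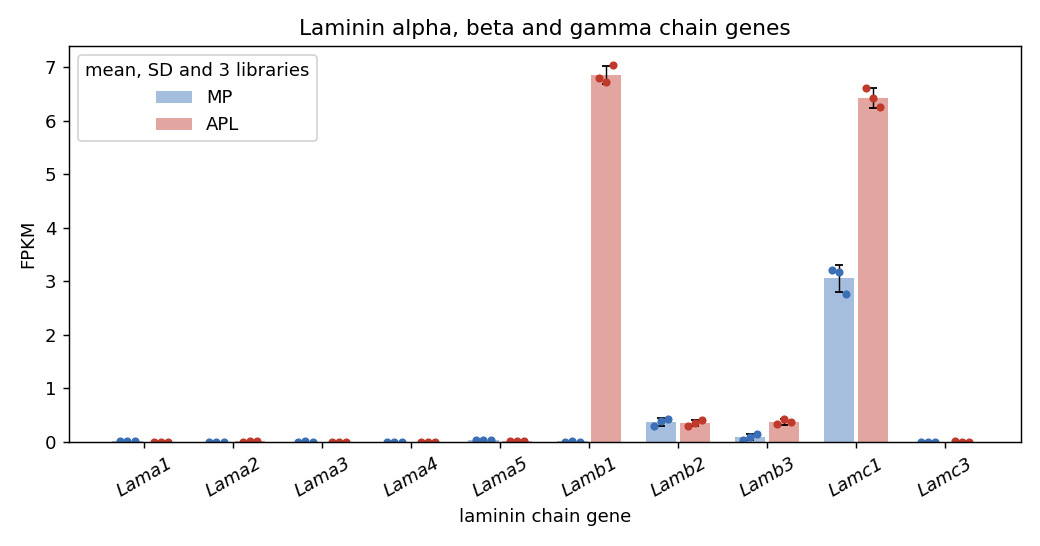
FPKM of the 10 laminin chain genes in the table, with bars at the group mean, error bars of 1 SD and points for the 3 libraries. Lamb1 and Lamc1 stand at about the same height in APL progenitors, whereas in MPs Lamc1 stands highest and Lamb1 near 0, and every α chain lies near 0 in both groups.

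Among the other laminin chains and Comp, a list of 8 of which 7 had a row and 4 were tested, 1 was called higher and 1 lower. Lamb3, the β3 chain of epithelial laminin, rose from 10.7 ± 6.76 to 44.0 ± 6.38 scaled fragments (SD, n = 3 each), a log2 difference of 2.10 (adjusted p = 0.0019 from limma). Lama1, the α1 chain, fell from 3.11 ± 1.49 scaled fragments to 0 in every APL library. It did not pass the filter once any 1 of the MP libraries was left out, since it needs a value in 3 libraries. Comp, the remaining pentameric thrombospondin, had 4.66 ± 1.93 scaled fragments in MPs and 7.32 ± 6.42 in APL progenitors and was not called. The median log2 difference of the 4 was −0.26. Over all genes tested, 21.7% were called higher and 24.4% lower.

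The receptors for laminin changed in both directions. Of 13 listed, all were tested, 4 were called higher and 6 lower, and their median log2 difference was −0.89. Among all genes tested, 21.7% were called higher and 24.4% lower. Itgb4, the β4 integrin chain that pairs with α6 on epithelia, rose from 8.04 ± 1.22 to 195 ± 22.6 scaled fragments (log2 difference 4.44), and Itga1, which also binds collagen, from 42.0 ± 6.80 to 257 ± 19.8 (2.59). Itga7, a laminin receptor chain of muscle, was called higher at 3.73 ± 1.38 scaled fragments, a call that was lost with a pseudocount of 8. Itga7 had no MP value of 1 or more, so it passed the filter only through the APL group and could only be called higher. It was not tested once any 1 of the APL libraries was left out. Itgb1, the β1 chain common to most of these integrins, rose by 0.66 to 10094 ± 115 scaled fragments, a call that was lost with quantile normalization (0.57) and with the same total in every library (0.53). Itga6, the α6 chain, fell from 1096 ± 6.70 to 325 ± 24.4 scaled fragments (−1.75). The syndecans, cell surface heparan sulfate proteoglycans, fell to a few fragments. Sdc1 went from 117 ± 10.9 to 2.19 ± 0.396 and Sdc2 from 174 ± 26.2 to 4.0 ± 1.96 scaled fragments, with log2 differences of −5.22 and −5.19. Sdc4 fell from 13.3 ± 7.56 to 0.289 ± 0.50 and Itga2, a collagen and laminin binding chain, from 6.17 ± 2.93 to 0 scaled fragments. Neither was tested once any 1 of the MP libraries was left out, since the filter needs a value in 3 libraries. Rpsa, a ribosomal protein also named as a laminin receptor, was the most abundant and was not called (−0.30), but was called lower with quantile normalization (−0.83). The largest adjusted p among the called genes was 0.0046 by limma. The count called lower was 3 with a minimum of 10 scaled fragments in 3 libraries.

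Receptors for thrombospondins also split. Of 8 listed, 7 were tested, 3 were called higher and 3 lower, with a median log2 difference of 0.17. The shares over all genes tested were 21.7% higher and 24.4% lower. The largest adjusted p among the called genes was 9.0e-05 by limma. Lrp1, an endocytic receptor that clears thrombospondins, rose from 382 ± 47.2 to 1145 ± 42.2 scaled fragments (1.59). Calr, a chaperone of the endoplasmic reticulum that also binds Thbs1 at the cell surface, rose from 46774 ± 1410 to 125230 ± 10425 (1.42). It lies on chromosome 8, as does Itgb1. Of the genes called lower in the lists below, Col4a1, Col4a2 and Thsd1 also lie on chromosome 8. Itgav, the αV integrin chain, rose from 440 ± 39.3 to 766 ± 40.6 (0.80), a call that was lost with FPKM (0.58). Cd36, a scavenger receptor for the type 1 repeats of Thbs1 and Thbs2, fell from 68.6 ± 15.3 to 5.16 ± 2.45 (−3.57). Itgb3, the β3 chain of platelet and αV integrins, fell from 494 ± 82.5 to 130 ± 21.9 (−1.91) and Itga4 from 5204 ± 297 to 3216 ± 55.3 (−0.69). Cd47, which binds the C-terminal domain of Thbs1, had 4871 ± 399 scaled fragments in MPs and 5475 ± 141 in APL progenitors and was not called.

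Among the listed partners of laminin in the basement membrane, more were called lower than higher. Of 18 listed, 17 had a row, 15 were tested, 4 were called higher and 10 lower, with a median log2 difference of −1.65. Of all genes tested, 21.7% were called higher and 24.4% lower. Nid1, Nid2, Hspg2, Col4a5 and Col4a6 had no APL value of 1 or more. They passed the filter only through the MPs and could only be called lower. Fbln2 and Col4a4 passed only through the APL group and could only be called higher. With at least 1 scaled fragment in all 6 libraries, 2 were called higher and 2 lower. By limma the largest adjusted p among the called genes was 0.031. The type IV collagen chains Col4a1 and Col4a2 fell from 54.0 ± 17.0 to 0.989 ± 0.892 and from 84.4 ± 28.9 to 8.27 ± 2.64 scaled fragments (−4.86 and −3.19). Nid2, which links laminin γ1 to type IV collagen, fell from 19.2 ± 6.08 to 0.289 ± 0.50, and Hspg2, the proteoglycan perlecan, from 12.4 ± 2.53 to 0.289 ± 0.50. Agrn, the proteoglycan agrin that binds the laminin γ1 chain, was the most abundant and rose from 1278 ± 68.4 to 3979 ± 240 (1.64). Smoc1, a calcium-binding basement membrane protein, rose from 19.7 ± 7.0 to 783 ± 24.0 (5.30), and Fbln2, a fibulin that binds laminins, was at 0 in every MP library and at 106 ± 21.2 scaled fragments in APL progenitors. Col4a4, called higher at 4.21 ± 2.92 scaled fragments, lost its call without MP library 1. Many of these genes had few fragments, and the count called lower was 4 with a minimum of 10 scaled fragments in 3 libraries, 4, 4 and 3 without MP library 1, 2 or 3, and 0 with FPKM. The count called higher was 2 without any 1 of the APL libraries. Genes with fragments in 1 group alone no longer reached the filter once a library of that group was left out.

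Proteins that carry the thrombospondin type 1 repeat moved in both directions in similar number. Of 51 listed, 37 had a row, 28 were tested, 9 were called higher and 10 lower, with a median log2 difference of 0.10. Genes in general also moved in both directions, with 21.7% of all genes tested called higher and 24.4% lower. Adamts12, Adamts20 and Rspo1 had no APL value of 1 or more. They passed the filter only through the MPs and could only be called lower. Adamts2 and Adamtsl3 had no MP value of 1 or more and could only be called higher. With at least 1 scaled fragment in all 6 libraries, 5 were called higher and 4 lower. By limma the called genes reached an adjusted p of 0.022 or less. Nov, a matricellular protein of the CCN family, rose from 17.2 ± 14.7 to 13427 ± 1089 scaled fragments (9.89), and Bai1, an adhesion receptor for apoptotic cells, from 0.937 ± 1.62 to 612 ± 48.4. Both lie on chromosome 15, whose median gene had a log2 difference of 0.46 against −0.12 for all other genes. Adamtsl3 was at 0 in every MP library and at 158 ± 15.3 in APL progenitors, and the protease Adamts5 rose from 2.48 ± 1.09 to 65.2 ± 16.1 (4.26). Spon2, a secreted protein of innate immunity, fell from 280 ± 75.1 to 0.682 ± 0.611 (−7.43). Thsd4 fell by 3.55 on the log2 scale, Adamts20 from 9.65 ± 2.18 scaled fragments to 0 in every APL library, and Thsd1 went from 153 ± 31.6 to 14.5 ± 2.87 scaled fragments. The metalloprotease Adamts10 came after Nov by mean FPKM over all 6 libraries. It had 1201 ± 138 scaled fragments in MPs and 1016 ± 40.7 in APL progenitors and was not called. In MPs alone Cfp had the highest mean, at 11.1 FPKM against 10.4 for Adamts10 and 0.269 for Nov. Cfp was called lower, from 432 ± 62.4 to 157 ± 19.9 scaled fragments (−1.45). Without MP library 3 the count called lower was 6.

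**Figure D4:**
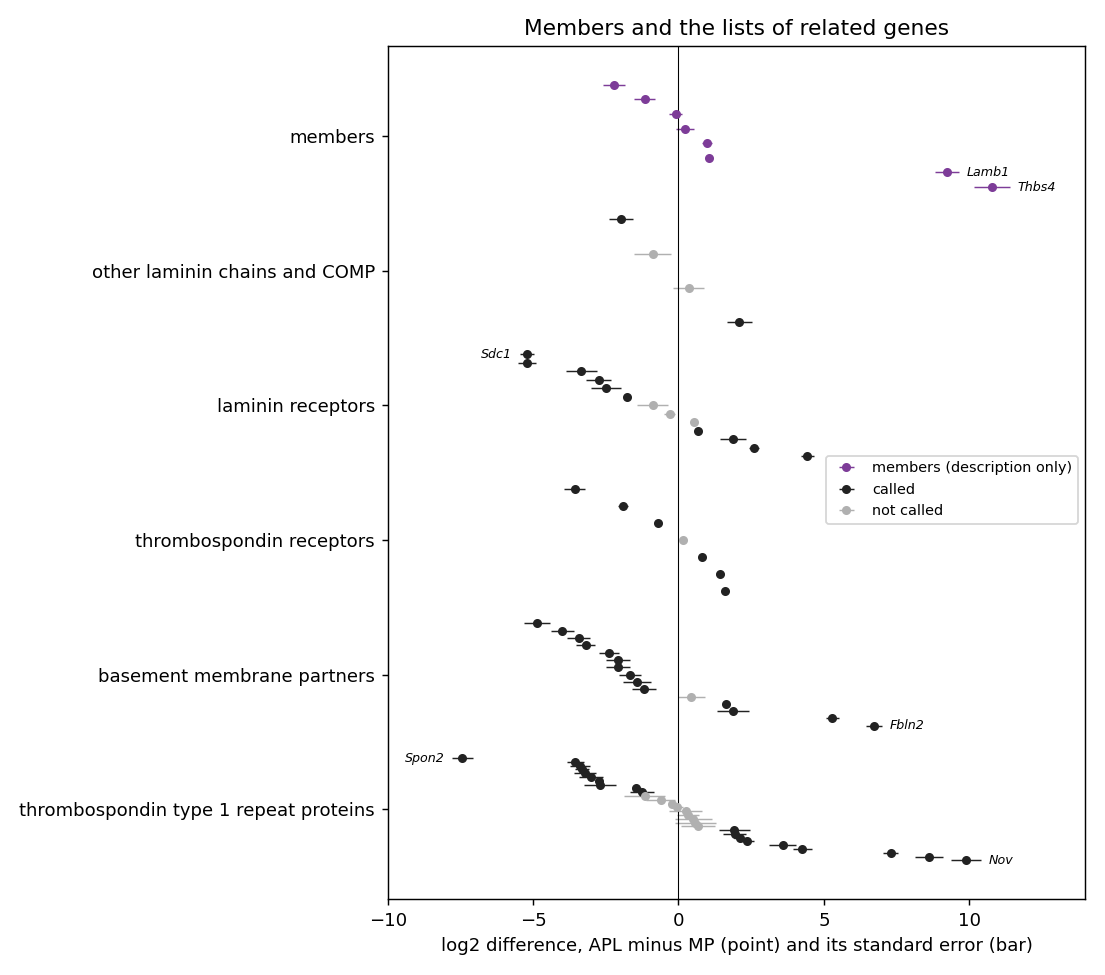
Log2 difference of APL progenitors minus MPs with its standard error, for the 8 members (purple) and for the tested genes of the 5 lists, in black where called by limma and grey where not. Thbs4 (10.78) and Lamb1 (9.24) stand far to the right of the other members, and the basement membrane partners lie mostly to the left of 0.

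Markers of other cells that make thrombospondins or laminins were compared in both groups. The 2 tendon markers with a row, Scx and Mkx, summed to between 5.20 and 13.6 scaled fragments in APL libraries and between 1.87 and 6.66 in MP libraries. The 6 bone and cartilage markers with a row summed to at most 4.94 in APL and 9.02 in MP libraries. Of 10 stromal markers 9 had a row, and their sum was 304 to 338 scaled fragments in APL libraries and 497 to 666 in MP libraries, with 3 called higher and 4 lower. Col1a1 rose from 3.08 ± 1.33 to 70.2 ± 13.7, and Pdgfra and Lepr were called higher at 5.71 ± 3.02 and 31.4 ± 8.34 in APL progenitors. Col1a2 fell from 134 ± 25.3 to 4.58 ± 1.98, and Pdgfrb, Cxcl12 and Postn were also called lower. Pdgfra passed the filter only through the APL group and Postn only through the MPs. Pdgfrb, at 203 ± 15.5, was the largest part of the APL sum. Dcn was at most 1.73 and Col3a1 at 0 in the APL libraries. In the MP libraries Dcn was at 0 and Col3a1 at most 0.937. Endothelial markers summed to 389 to 521 in APL libraries and 2118 to 2887 in MP libraries, and 6 of 7 tested were called lower. Pecam1 at 1226 ± 148 and Egfl7 at 876 ± 230 were the largest parts of the MP sum. Cdh5, the endothelial marker that was not called, was at most 0.937 in the MP libraries and at 2.37 ± 1.15 in APL progenitors. The markers of megakaryocytes and platelets, which store Thbs1, summed to 189 to 264 in APL libraries and 2987 to 4008 in MP libraries, and 7 of 8 were called lower. The 8 macrophage markers summed to 3284 to 3360 in APL libraries and 2216 to 2747 in MP libraries, with 4 called higher and 2 lower. Of the 4 erythroid markers, all were called lower. For all genes tested the shares were 21.7% called higher and 24.4% lower. The part of these cells in the levels of the members was not tested.

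The genes beside the members were called in both directions. Thbs4 and Lamb1 were chosen for their rise, and only 1 and 8 genes tested had a larger log2 difference. Smaller differences in the genes beside them therefore follow from that choice. Of the 16 nearest tested neighbours, 1 on each side of each member, 2 were called higher and 4 lower by limma, against 46.1% of all genes tested called in either direction. No gene of the table overlapped the locus of a member. Beside Thbs4, Serinc5 at a distance of 39.6 kb fell by 1.29 on the log2 scale (adjusted p = 8.3e-07), and Mtx3, at 50 kb, had −0.48 with a fold under 1.5 and was not called. Mtx3 was called lower, at −0.61, with the same total in every library and without MP library 3. Beside Lamb1, the mitochondrial enzyme gene Dld lies at a distance of 1.9 kb and had a log2 difference of 0.17, from 4536 ± 247 to 5117 ± 187 scaled fragments, and was not called. Fam110c at 185.4 kb fell by 1.15 (adjusted p = 0.0086), a call that was lost with quantile normalization (−0.52). The median log2 difference was −0.11 on chromosome 13 and −0.18 on chromosome 12, against −0.10 for all other genes in both cases. Within 1 Mb on each side, the 12 other tested genes around Thbs4 had log2 differences between −2.36 and 0.64, and the 12 around Lamb1 between −1.73 and 2.32. Around the 6 other members, Mllt4 beside Thbs2 (2.51) and E330020D12Rik beside Lamc1 (1.93) rose, Nmnat2 beside Lamc1 (−3.28) and Klhdc8b beside Lamb2 (−2.28) fell, and Rasgrp1, Eif2ak4, Wdr27, Mtx1, Muc1, Usp19, Adrm1 and Rps21 were not called. Among these, Wdr27 and Muc1 were called higher and Rps21 lower with quantile normalization, Wdr27 also without APL library 2, and Rps21 also with the same total in every library and without MP library 1, MP library 2 or APL library 3.

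**Figure D5:**
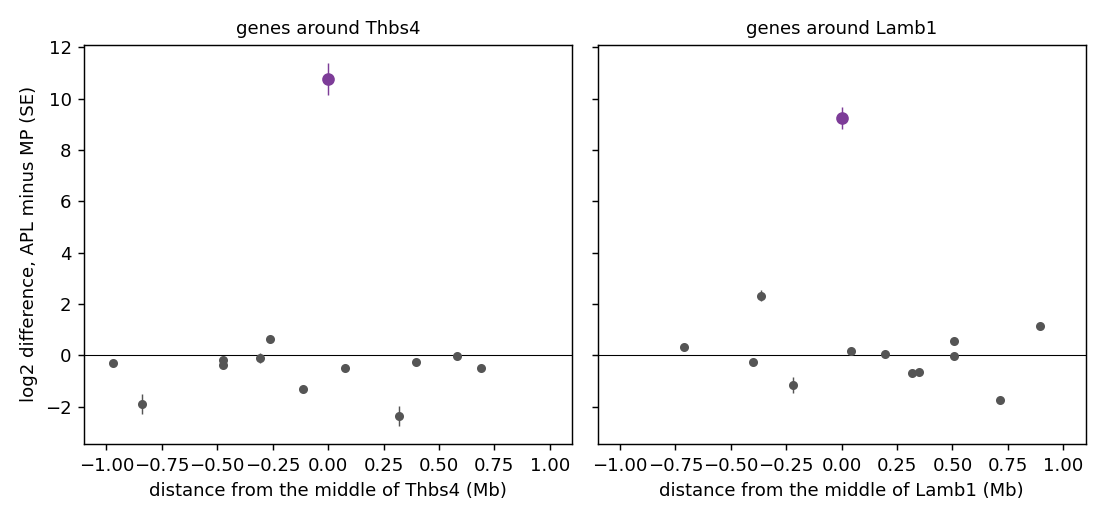
Log2 difference (APL minus MP, with its standard error) of tested genes by their distance in Mb from the middle of Thbs4 and of Lamb1. The large points of Thbs4 and Lamb1 stand at 10.78 and 9.24, and the 12 other genes around each lie between −2.36 and 2.32.

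The genes whose profiles over the 6 libraries were nearest to that of Thbs4 were Morc1, Clec3a, Nov, Steap2 and Iqca, at Euclidean distances of 1.06, 1.33, 1.41, 1.57 and 1.89 between log2 values centred on each gene's mean. Those nearest to Lamb1 were F7, Six4, Nov, Tenm3 and Astn2, at 0.615, 0.928, 0.933, 0.954 and 0.992. Nov stood on both lists and had 4.68, 33.3 and 13.5 scaled fragments in MP libraries 1 to 3. Its highest MP value was in MP library 2, as for Thbs4 and Lamb1. The distance takes in the MP libraries, so this likeness is partly set by how the nearest genes were chosen. F7, which encodes coagulation factor VII, had 15.0, 35.2 and 20.7 scaled fragments in the MP libraries and 11175, 13230 and 13406 in the APL libraries. Among these 9 genes, Clec3a, F7 and Tenm3 lie on chromosome 8, whose median gene had a log2 difference of 0.48 against −0.13 for all other genes. Col4a1, Col4a2 and Thsd1, which were called lower, lie on chromosome 8 as well.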

How the data were processed

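The data were 6 RNA-seq libraries of sorted mouse bone marrow cells, 3 normal MP and 3 c-Kit+ APL. The authors deposited 1 table of 16440 genes with FPKM values, which are fragments divided by transcript length and by the mapped fragments of the library. Beside these they deposited fragment values, a signal on the scale of fragments that had been multiplied by a factor of each library. These are called scaled fragments. The submitters' processing notes name CASAVA 1.8, TopHat2 2.0.6 and mm10, whereas the methods of the study name STAR, mm9 and HTSeq-count, and the tool that made the table is not given in the sources used here. The loci follow GRCm38 (mm10): of 16361 identifiers found in RefSeq of that build, 16295 overlapped the RefSeq gene.

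Of the nonzero values under 50 fragments, 89.0% to 90.3% per library were whole multiples, within 0.02, of the value of 1 fragment, so no count test was used. limma 3.58.1 in R 4.3.3 (lmFit, eBayes with a trend) was fitted to log2(scaled fragments + 1) for the genes with at least 1 in at least 3 of 6 libraries. A gene was called at a Benjamini-Hochberg adjusted p under 0.05 over all genes tested and a fold over 1.5. The members were chosen on this same contrast, so no p-value is given for them. The members and the lists were chosen with earlier results of these data known. The named genes were all members, in each list up to 4 called genes in each direction by size and the most abundant by FPKM, the nearest tested neighbour on each side of a member, and the 5 genes with the profile nearest to that of Thbs4 and of Lamb1. The text further names marker genes and other members of the lists, which were picked after their values were seen. Alternatives covered the pseudocount, the filter on low values, the scaling, FPKM, the replicate block and each library left out. Ratios of fragments carry exact (Clopper-Pearson) 95% intervals that cover counting error only, since fragments are not independent molecules. Promoter windows and gene names came from RefSeq (GRCm38.p6). The plots used matplotlib 3.10.9 under Python 3.11.15.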

Additional observations from a re-analysis of the deposited data

How the results depend on the processing

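Several members and many listed genes had few fragments, and their differences depended on the filter and on the scale. Of 120 counts of calls under 10 settings other than the leaving out of a library, 100 stayed within 1.5 times the count given. With FPKM, 1980 genes were called lower against 3558, 0 other laminin chains higher and 0 lower, 3 laminin receptors lower, 2 basement membrane partners higher and 0 lower, and 2 type 1 repeat proteins higher and 3 lower. In that fit both the pseudocount and the minimum of 1 applied to FPKM, and 11131 genes were tested. With at least 1 scaled fragment in all 6 libraries, the counts were 0 other laminin chains lower, 3 laminin receptors lower, 2 basement membrane partners higher and 2 lower, and 5 type 1 repeat proteins higher and 4 lower. With at least 10 in at least 3 libraries, they were 0, 3 and 4 lower and 6 type 1 repeat proteins lower. With a pseudocount of 8, 0 other laminin chains and 5 basement membrane partners were lower. With 1 library left out, 2734 to 3256 genes were called higher and 2913 to 3507 lower. The laminin receptors ranged from 3 to 4 higher and 4 to 6 lower, the basement membrane partners from 2 to 4 and 3 to 10, the type 1 repeat proteins from 7 to 9 and 6 to 10, the other laminin chains lower from 0 to 1 with 1 higher throughout, and the thrombospondin receptors kept 3 and 3.

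The members' log2 differences ranged over all settings from 9.30 (FPKM) to 11.68 for Thbs4, 2.96 (FPKM) to 9.79 for Lamb1, 0.83 to 1.19 for Thbs1 and 0.88 to 1.13 for Lamc1. Those of Lama5 ranged from −1.48 to −0.44, of Thbs3 from 0.02 to 0.91 and of Lamb2 from −0.26 to 0.37, while the fitted value of Thbs2, at 0 in APL, is set by the pseudocount. Of 820 values of 57 other named genes, 801 kept their direction and call, 8 lost the call, 11 gained it and none reversed. A further 92 values do not exist because the gene no longer passed the filter, 80 of them of called genes. Scaling to the same total moved the median of all genes from −0.10 to −0.23.

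The replicate numbers 1 to 3 occur in both groups, but the deviations of same-numbered libraries correlated at 0.135, −0.00160 and 0.127, so they were not taken as pairs, and not every library correlated best with its own number. With the replicate block, 3164 genes were called higher and 3589 lower.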
